A study of Rattus norvegicus with 12 samples.

Results

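The genes described here encode the proteins of the cytosolic ribosome, the particle that makes protein in the cytoplasm. They were the rows of a rat brain RNA sequencing table whose symbol starts with Rpl or Rps and a digit, plus Rpsa, Rplp0, Rplp1 and Rplp2. Kinases named Rps6k and pseudogene symbols with -ps were left out, and a summed count of at least 50 over all columns was required. The rule took 88 of 18800 symbols, of which 52 carried large subunit names and 36 small subunit names. Core proteins of the mammalian ribosome made up 77 of them, 46 in the large and 31 in the small subunit. The other 11 were paralogs and related genes: Rpl10l, Rpl22l1, Rpl30l1, Rpl36al, Rpl39l, Rpl7l1, Rps10l1, Rps19bp1, Rps27l, Rps4y2 and Rps9l1. The name rule therefore reaches a little past the label, since Rps19bp1 encodes a protein that binds Rps19, and RefSeq lists Rps10l1 as a pseudogene. Just below the count limit lay Rpl3l, a paralog of Rpl3 used in mammalian muscle, with a summed count of 39. Just above it lay Rpl39l with 83. The core proteins Rack1 and Fau have names that the rule does not take, and they were followed separately.

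The study sequenced messenger RNA of Sprague-Dawley rat brain tissue in 3 groups, and its title asks about synaptic plasticity after ischemia-reperfusion injury. Control rats were only restrained during the sessions. Model rats had an occlusion of the middle cerebral artery with reperfusion (MCAO/R), a rodent model of stroke, and were restrained in the same way. Rats of the electroacupuncture group had the same occlusion and reperfusion, were restrained, and received electroacupuncture, in which needles carry a weak current, at the Tianfu, Chize, Kongzui and Taiyuan acupoints of the Lung Meridian. The labels give no brain region, side, age, sex or time after reperfusion, and name no operation for the controls, although their columns are headed as sham.

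A ribosome joins a small subunit, which reads the messenger RNA, to a large subunit, which forms the peptide bond. Each subunit holds ribosomal RNA and a single copy of most of its proteins, so cells make these proteins in matched amounts. Their messenger RNAs start with a C followed by a run of pyrimidines, the 5′ terminal oligopyrimidine (5′ TOP) tract, through which the mTOR pathway sets how strongly they are translated. In neurons, ribosomes lie in the cell body and also in dendrites and axons, where local protein synthesis takes part in synaptic plasticity. Messenger RNA levels, the quantity measured here, do not show that translational step.

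The table held 11 columns of estimated counts for 12 labelled samples. In 3 pairs of columns within a group, the median squared difference between the columns was 1.34 to 1.4 times the sampling variance, against 3.65 to 29.46 times in the other 52 pairs. Each such pair was counted as 1 sample. The comparisons therefore rest on 3 control samples (A, B and C), 2 model samples (A and B) and 3 electroacupuncture samples (A, B and C), with total counts from 9335929 to 23835795. Markers of brain regions differed between samples. The summed level of 8 hippocampal markers was 646 to 815 CPM (counts scaled to the size of the library) in the controls, 172 (A) and 168 CPM (B) in the model samples, and 132, 562 and 588 CPM in electroacupuncture A, B and C. The summed level of 7 striatal markers was 144 to 340 CPM in the controls, 682 and 313 CPM in the model, and 4618 CPM in electroacupuncture A against 302 and 152 CPM in B and C. The summed level of 6 neocortical markers was 132 to 148.5 CPM in the controls and 209.5 and 723 CPM in model A and B. In electroacupuncture A, B and C the neocortical sum was 209.3, 177 and 154 CPM. The mean log2 difference of these 6 markers from their control mean was -0.274 in electroacupuncture A and 0.527 in model A. The markers of electroacupuncture A therefore did not all follow their sum. That mean was 1.938 in model B, and 0.471 and 0.055 in electroacupuncture B and C. In such bulk samples, fewer cells of a type, less RNA per cell and a difference in the tissue taken cannot be told apart.

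The start of each gene was searched for a sequence pattern that some of the core members share. RefSeq promoters of the GRCr8 assembly were available for 69 members, 62 of them core. The windows below run from 15 bases before the annotated start site to its first 15 transcribed bases, with the pyrimidine run at the start in capitals. The first group shows core members whose annotated start is a C within such a run, chosen from both subunits. Core members without a run at their annotated start, such as Rpl11, Rpl13a and Rps6, are not printed.
Rpl10, chrX:157205835-157205864, plus strand: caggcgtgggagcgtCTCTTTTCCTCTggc
Rpl31, chr9:49143096-49143125, plus strand: ccacaatccctcgcgCCTTTCCTTTCCaac
Rplp1, chr8:71290858-71290887, minus strand: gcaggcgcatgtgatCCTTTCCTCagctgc
Rps7, chr6:50999431-50999460, minus strand: tcgcgagagctgtgtCTCTTTCTaagccgg
Rps18, chr20:4933730-4933759, plus strand: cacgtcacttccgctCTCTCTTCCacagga
Rpl35a, chr11:81235007-81235036, minus strand: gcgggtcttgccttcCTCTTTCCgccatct
The next shows Rpl27a, whose values stood apart from the other members, and whose annotated start is a T in a run that goes on past the window.
Rpl27a, chr1:172974558-172974587, plus strand: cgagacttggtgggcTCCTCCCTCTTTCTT
The last shows paralogs that are not core members and have no such run at their annotated start.
Rpl7l1, chr9:21695703-21695732, plus strand: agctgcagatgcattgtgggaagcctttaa
Rpl22l1, chr2:113683181-113683210, plus strand: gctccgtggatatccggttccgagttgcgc

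A C at the first transcribed base followed by at least 4 more pyrimidines was found in 24 of the 62 core members (38.7%). The same pattern was found in 2.4% of 19005 protein-coding genes, in 3.2% of 63 mitochondrial ribosomal protein genes and in 0 of 7 members outside the core set. A looser pattern, at least 6 pyrimidines in a row starting within 5 bases of the annotated start, was found in 64.5% of core members and in 12.8% of all coding genes. The core of the ETS family motif, CGGAAG on either strand within the promoter window of 250 bases before and 50 after the start, occurred in 56.5% of core members and 20.6% of all coding genes. Its complement, CTTCCG, can overlap a pyrimidine run. The motif was about as common in the mitochondrial ribosomal protein genes, at 50.8%, and in the 7 members outside the core set, at 57.1%. The YY1 motif core AAGATGGC occurred in 8.1% of core members and 3.9% of coding genes, on either strand. It was more common in the mitochondrial ribosomal protein genes, at 25.4%, and in the 7 members outside the core set, at 14.3%. GGGCGG occurred in 58.1% of core members and 43.1% of coding genes, and TATAAA in 9.7% and 13.1%, each on either strand. In the mitochondrial ribosomal protein genes these were 47.6% and 12.7%, and outside the core set 42.9% each. A match is a run of letters in the reference, and the annotated start can differ from the start used in brain.

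As a body, the ribosomal protein genes took between 2.64% and 4.14% of all counts in a sample, and their share differed as much within groups as between them. The 3 controls had shares of 2.64%, 3.18% and 3.21%, the 2 model samples 4.14% and 3.03%, and the 3 electroacupuncture samples 4.09%, 2.65% and 3.37%. Model A and electroacupuncture A were high, control A and electroacupuncture B were low, and the 3 groups overlapped. The group means were 3.01% ± 0.319 (SD, n = 3) in the controls, 3.59% ± 0.782 (SD, n = 2) in the model and 3.37% ± 0.718 (SD, n = 3) with electroacupuncture. The mean share was 1.19 times the control value in the model and 1.12 times with electroacupuncture. Without model A the first ratio was 1.01, and without electroacupuncture A the second was 1.0002.

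The shift was shared by most members within a sample. Over the 87 members that passed the expression filter, the median log2 difference from the control mean was -0.21, 0.11 and 0.11 in control A, B and C. It was 0.32 and -0.11 in model A and B, and 0.19, -0.21 and 0.19 in electroacupuncture A, B and C. Only 4 of the 87 members lay above the control mean in control A and 7 in electroacupuncture B, whereas 82 did in control C and 80 in electroacupuncture C. The samples of the model lay on opposite sides, with 76 members above the control mean in model A but 24 in model B. Rack1 (a scaffold protein on the small subunit) and Fau (a small subunit protein made as a fusion to a ubiquitin-like protein) were not used in choosing members. Rack1 was at 252, 271 and 279 CPM in the controls, 309 and 234 CPM in the model, and 322, 250.3 and 302 CPM with electroacupuncture. Fau was at 372, 514 and 492 CPM in the controls, 595 and 475 CPM in the model, and 524, 391 and 495 CPM with electroacupuncture. For both genes the 3 lowest samples were control A, model B and electroacupuncture B, the same 3 in which the member median was below 0, and model A and electroacupuncture A were the highest.

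**Figure D1:**
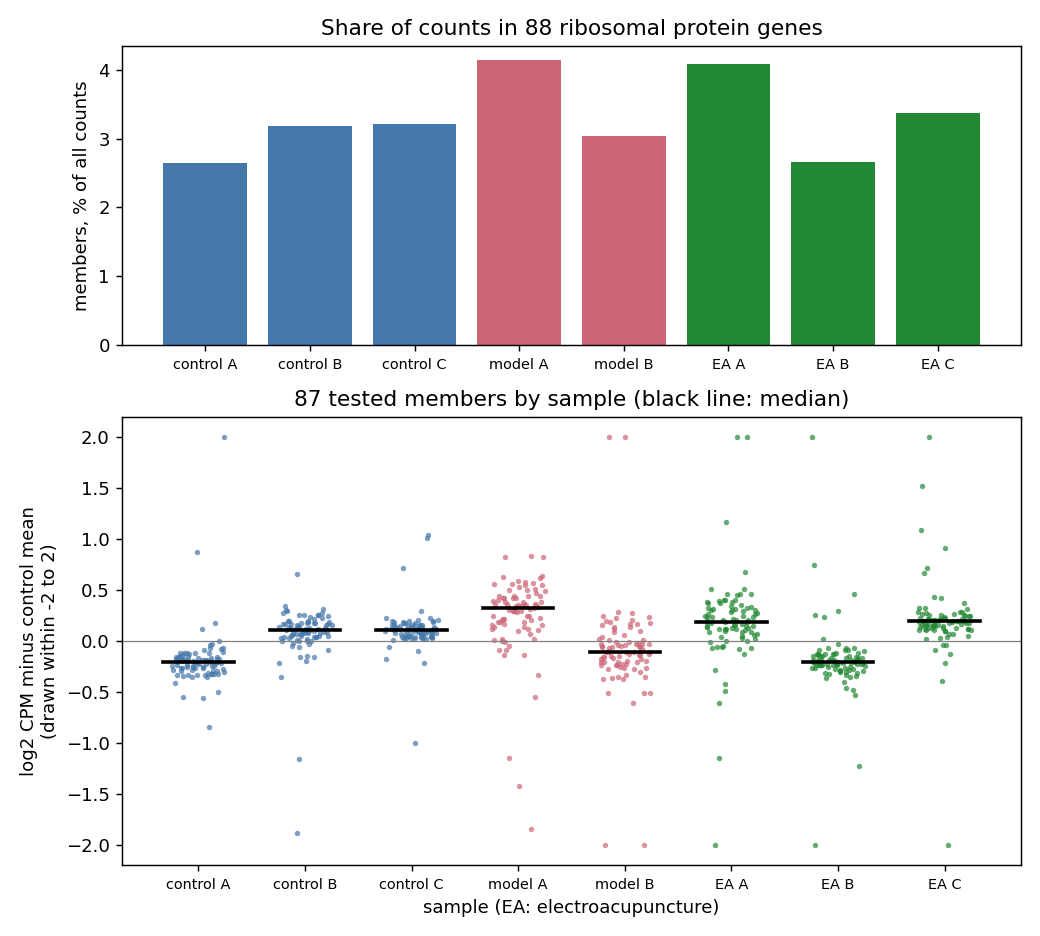
The upper panel shows the percentage of all counts in the 88 ribosomal protein genes, 1 bar per sample, and the lower panel shows the log2 CPM of each of the 87 tested members minus its control mean, with the sample median as a black line and points beyond -2 or 2 drawn at that edge. The member cloud moves as a block from sample to sample, from a median of -0.21 in control A and electroacupuncture B to 0.32 in model A. The model and the electroacupuncture group each hold samples on both sides of 0. The controls lie around 0 because it is their own mean.

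Core members kept close to each other around this shared shift. The standard deviation of a core member around the sample median, on the log2 scale, had a median of 0.11 over the 76 core members tested, and it was under 0.3 in 74 of them. Across the 8 samples, the median correlation between pairs of core members was r = 0.77. The correlation with the member median was over 0.8 in 57 of the 76 core members and in 1.8% of all genes tested. The genes closest to the median profile were Rpl13a (r = 0.985), Rpl19 (r = 0.983) and Rpl15 (r = 0.982), and those farthest from it were Rpl27a (r = -0.12), Rpl30 (r = 0.14) and Rps9 (r = 0.34). These correlations are descriptions over 8 samples, in which the points share libraries and scaling and the median contains the genes compared with it.

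Large and small subunit genes shifted in step. The balance was taken in the 8 samples over the 45 core large and 31 core small subunit members tested. The large subunit median of log2 differences from the control mean, minus the small subunit median, lay between -0.051 (control C) and 0.026 (model A). With means in place of medians, the balance was between -0.054 and 0.051 in the controls, 0.004 and -0.085 in the model, and -0.18, -0.136 and -0.054 with electroacupuncture. In electroacupuncture A, B and C the log2 difference of Rpl30 from its control mean was -10.28, -6.34 and -5.38, and that of Rpl27a was 2.68, -1.22 and 2.49. Without those genes, a choice made after their values were seen, the 8 samples lay between -0.025 and 0.026.

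**Figure D2:**
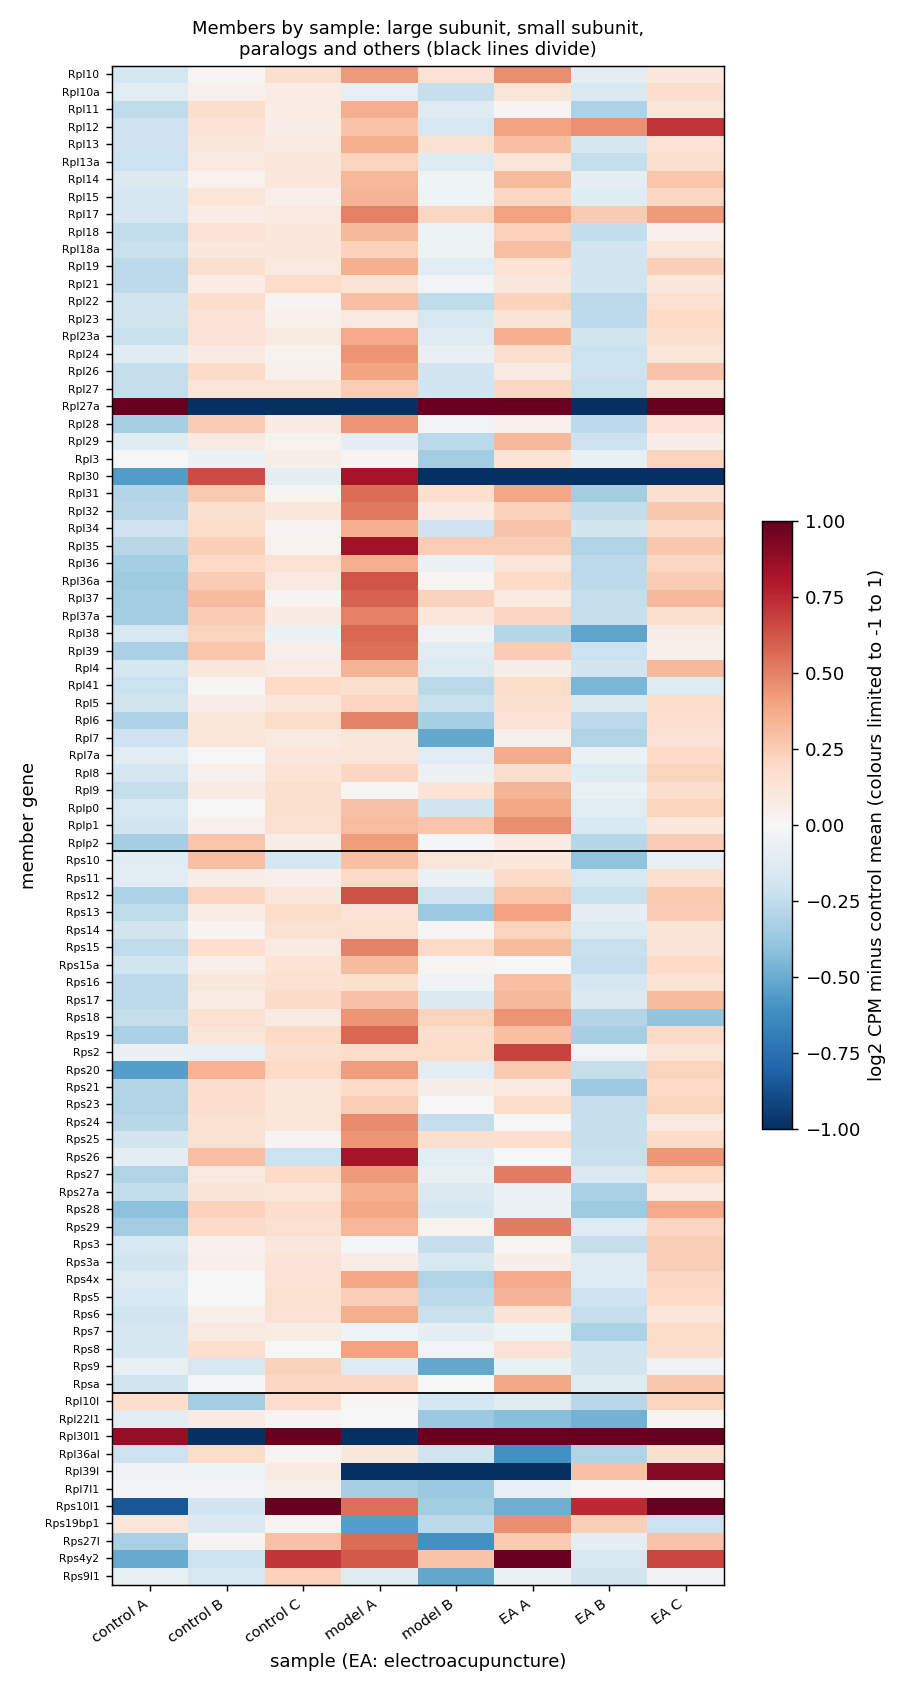
Each row is a tested member and each column a sample, with colour for the log2 CPM minus the control mean, limited to -1 to 1, and black lines between core large subunit, core small subunit and other members. Most rows share the colour of their column, and Rpl27a, Rpl30 and several paralogs at the bottom do not.

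The first comparison asked which ribosomal protein genes differed between brains after ischemia-reperfusion and control brains. No member was called at a Benjamini-Hochberg adjusted p under 0.05 in edgeR's quasi-likelihood test, in which 0.00646% of all 15485 genes tested were called. The smallest adjusted p of a member was 0.207. DESeq2 also called 0 members, where it called 2.79% of all genes as higher and 2.31% as lower. At an unadjusted p under 0.05 there were 2 members, Rpl39l and Rpl7l1, both lower in the model, or 2.3% of members against 13.8% of all genes. The model and control samples did not overlap for 8 members that were higher in the model (9.2% of members, against 18.2% of all genes) and 3 that were lower (3.45%, against 19.6%). The 8 were Rpl13, Rpl17, Rpl35, Rplp1, Rps15, Rps18, Rps2 and Rps25, and the 3 were Rpl39l, Rpl7l1 and Rps19bp1. Both shares lay below those of all genes.

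The estimates leaned upward without passing the test. The median log2 fold change of members was 0.11, against 0.02 over all genes, and 67 members were higher in estimate (77% of members, against 51.5% of all genes) and 20 lower. It was 0.13 over the 45 core large subunit members and 0.11 over the 31 core small subunit members, and -0.10 over the 11 members outside the core set. This lean depended on single samples. The member median was -0.12 without model A, 0.0025 without control A, 0.31 without model B, and 0.18 without control B or C.

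Rpl35, a large subunit protein near the exit tunnel, had the highest estimate after Rpl27a among members with a mean of at least 10 CPM. The control samples A, B and C were measured at 577, 828 and 719 CPM, and the model samples at 1251 (A) and 830.4 CPM (B). The log2 fold change was 0.56 (SE 0.28, adjusted p = 0.414). Model A stood apart, and model B lay barely above control B. Rps26, a small subunit protein at the messenger RNA exit, was at 87.4, 115 and 80.3 CPM in the controls and at 165 and 86.5 CPM in the model. The fold change on the log2 scale was 0.42 (SE 0.32, adjusted p = 0.58). Its groups overlapped, and without model A the estimate was -0.12. Rpl37 (0.40, SE 0.26) and Rps19 (0.37, SE 0.26), core proteins of the large and the small subunit, had the next highest log2 fold changes above that CPM limit, with adjusted p of 0.519 and 0.552. Without model A the log2 fold changes of Rpl35, Rpl37 and Rps19 were 0.23, 0.20 and 0.15, and without control A those of Rpl37 and Rps19 were 0.24 and 0.23. Below the limit, Rpl30l1 had an estimate of 1.297 and Rps4y2 of 0.38.

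Rpl7l1, a paralog of Rpl7 that takes part in building the large subunit, stood lower in both model samples than in any control. It was measured at 83.2, 83.3 and 88.03 CPM in the controls and at 67.4 and 65.7 CPM in the model. With electroacupuncture it was at 80.2, 86.0 and 85.9 CPM, so the 2 model samples were the lowest of the 8. The log2 fold change was -0.35 (SE 0.12, adjusted p = 0.261) in the model against control and 0.34 (SE 0.12, adjusted p = 0.282) with electroacupuncture against the model. These comparisons share the model samples. Rpl7l1 was called in both with every column taken as its own library, a setting that counts near-identical columns as replicates, with adjusted p of 0.0218 and 0.0133. That setting called 3.75% of all genes as lower in the model than in the controls and 5.48% as higher with electroacupuncture than in the model. Rpl7 itself was at 424, 533 and 521 CPM in the controls, 532 and 345 CPM in the model, and 507, 398 and 543 CPM with electroacupuncture, so its groups overlapped. Rpl29, a large subunit protein, had a log2 fold change of -0.18 (SE 0.20, adjusted p = 0.718).

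**Figure D3:**
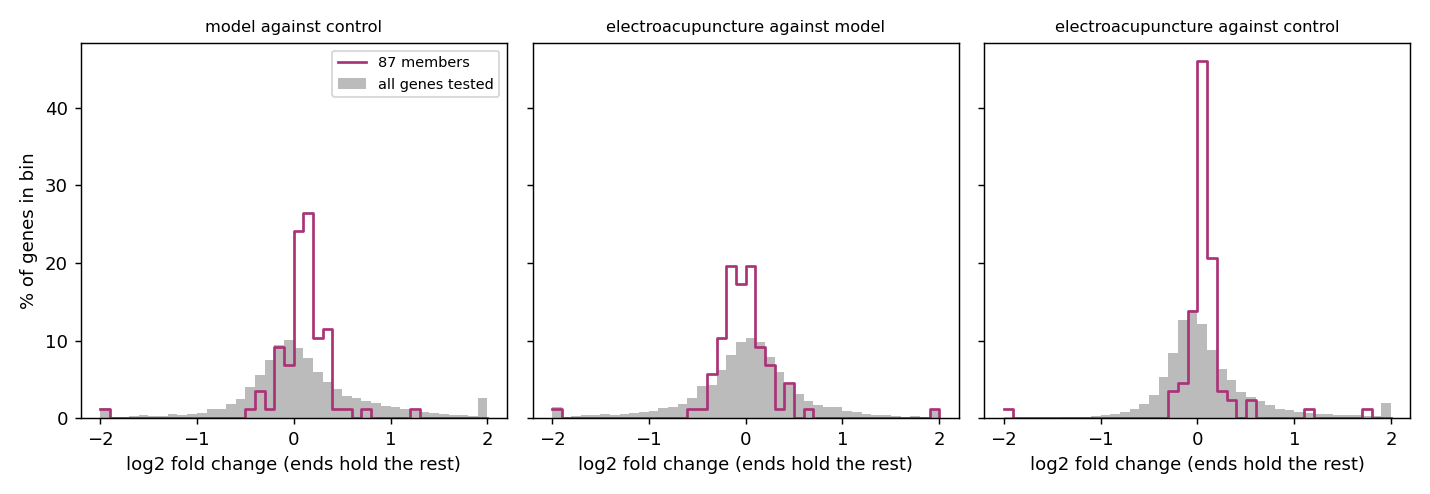
Each panel shows the percentage of genes per bin of log2 fold change for 1 comparison, for the 87 tested members (line) and all 15485 genes tested (grey), with values beyond -2 or 2 placed in the end bins. Members gather within a narrower range than all genes, around medians of 0.11, -0.03 and 0.06.

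The second comparison set electroacupuncture against the untreated model. No member was called, and 0% of all genes were called. The smallest adjusted p of a member was 0.186, and DESeq2 called 1 member, Rpl30, as lower, as it did 2.8% of all genes. At an unadjusted p under 0.05 there were 3 members (3.45%, against 13.5% of all genes): Rpl39l and Rpl7l1 were higher with electroacupuncture and Rpl30 lower. The groups did not overlap for 4 members that were higher (4.6%, against 12.9% of all genes), Rpl12, Rpl39l, Rpl7l1 and Rps19bp1, and for 1 that was lower (1.15%, against 11.7%), Rps10. The median log2 fold change of members was -0.03, against 0.03 over all genes, with 38 members higher in estimate (43.7%, against 53.3% of all genes) and 49 lower. The median turned positive without model A (0.16) and without electroacupuncture B (0.07).

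Rpl12, a protein at the base of the stalk of the large subunit, had the highest estimate in this comparison among members with a mean of at least 10 CPM. It was at 133, 170.1 and 161 CPM in the controls, 188 and 138 CPM in the model, and 203, 212 and 253 CPM with electroacupuncture. All 3 electroacupuncture samples lay above all 5 others, including electroacupuncture B, in which most members were low. The log2 fold change was 0.45 (SE 0.20, adjusted p = 0.403) against the model and 0.52 (SE 0.18, adjusted p = 0.843, unadjusted p = 0.0208) against the controls. Rps13, a small subunit protein, had a log2 fold change of 0.30 against the model (SE 0.23, adjusted p = 0.658), which was 0.57 without model A, 0.07 without model B and 0.19 without electroacupuncture A. Without model A the estimate of Rpl12 against the model was 0.69, and without model B it was 0.25. Rps10l1, the pseudogene of Rps10, had an estimate of 0.42 (SE 0.64) with overlapping groups, between 20.6 and 79.3 CPM over the 8 samples.

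At the lower end of this comparison, after Rpl30, stood Rpl38, Rpl35, Rps18 and Rpl37. Rpl38, a large subunit protein tied in mouse to the translation of chosen messenger RNAs in development, was at 281, 367 and 301 CPM in the controls, 468 and 307 CPM in the model, and 258, 218 and 329 CPM with electroacupuncture. Against the model, its log2 fold change was -0.53 (SE 0.26, adjusted p = 0.431). Model A was the highest sample, and the groups overlapped. The log2 fold changes of Rpl35, Rps18 and Rpl37 were -0.48 (SE 0.28), -0.36 (SE 0.28) and -0.35 (SE 0.26), with adjusted p of 0.521, 0.648 and 0.637. Without model A the estimates of Rpl38, Rpl35 and Rpl37 were -0.19, -0.15 and -0.16, and without model B those of Rpl38 and Rpl35 were -0.80 and -0.74. The estimate of Rps18 was -0.67 without electroacupuncture A and -0.21 without C, and that of Rpl37 was -0.22 without electroacupuncture B. Rpl35 and Rpl37 were also among the highest estimates in the model against control, and both comparisons use model A. Rps10, a small subunit protein at the beak, was at 197 to 281 CPM with electroacupuncture and at 283 and 320.2 CPM in the model. Its controls, at 240, 320 and 230 CPM, spanned both ranges.

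The third comparison set electroacupuncture after ischemia against the controls. No member was called, 0% of all genes were called, the smallest adjusted p of a member was 0.843, and DESeq2 called 0 members and 0.0065% of all genes. At an unadjusted p under 0.05 there were 2 members, Rpl12 and Rpl30, or 2.3% of members against 3.67% of all genes. The groups did not overlap for 3 members that were higher (3.45%, against 5.97% of all genes), Rpl12, Rpl17 and Rpl30l1, and for 1 that was lower (1.15%, against 4.87%), Rpl30. The median log2 fold change of members was 0.06, against 0.01 over all genes, with 67 members higher in estimate (77%, against 50.7% of all genes) and 20 lower. It turned negative without control A (-0.04) and without electroacupuncture A (-0.01).

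Rpl17, a large subunit protein near the exit tunnel, was the member whose model and electroacupuncture samples all lay above the controls. It was at 329.5, 390.2 and 394 CPM in the controls, 526 and 427 CPM in the model, and 488, 443 and 498 CPM with electroacupuncture. The log2 fold change was 0.36 against control both in the model (SE 0.17, adjusted p = 0.409) and with electroacupuncture (SE 0.16, adjusted p = 0.843), and both use the same controls. Rps2, a small subunit protein, had a log2 fold change of 0.29 with electroacupuncture (SE 0.21, adjusted p = 0.843). It was at 577, 573 and 678 CPM in the controls and at 972, 595 and 660.4 CPM with electroacupuncture, where sample A alone was above the controls, and without that sample the log2 fold change was 0.04. At the lower end stood the paralogs Rpl22l1 (log2 fold change -0.28, SE 0.18) and Rpl36al (-0.22, SE 0.22), with Rpl38 (-0.24, SE 0.23) and Rps10 (-0.13, SE 0.20). Their adjusted p lay between 0.843 and 0.881.

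Members with particular roles were followed by sample. The stalk proteins Rplp0, Rplp1 and Rplp2, which recruit translation factors to the large subunit, had log2 fold changes of 0.06, 0.28 and 0.20 in the model against control. Against the model, electroacupuncture gave 0.11, -0.13 and -0.19, and no adjusted p was below 0.593. Rplp1 was at 634, 746 and 808 CPM in the controls and at 896 and 878 CPM in the model, without overlap, but at 998.5, 652 and 781 CPM with electroacupuncture. Rps6, the target of S6 kinase below mTOR, was at 506, 598 and 636 CPM in the controls, 745 and 494 CPM in the model, and 630, 493 and 627 CPM with electroacupuncture. Its log2 fold change was 0.09 (SE 0.23, adjusted p = 0.882) in the model against control and -0.09 (SE 0.23, adjusted p = 0.916) with electroacupuncture against the model.

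Rpl5 and Rpl11, which with the 5S ribosomal RNA form a particle that can bind Mdm2 and so raise p53, had log2 fold changes in the model against control of 0.00 (SE 0.21, adjusted p = 0.994) and 0.12 (SE 0.23, adjusted p = 0.837). Rpl11 was at 372, 501 and 466 CPM in the controls, 568 and 405 CPM in the model, and 452, 357 and 483 CPM with electroacupuncture, and the groups overlapped. Rpl13a, a large subunit protein often used as a reference gene, was at 727, 907 and 917 CPM in the controls, 985 and 772 CPM in the model, and 919, 717 and 948 CPM with electroacupuncture. Its log2 fold changes were 0.05, -0.03 and 0.02 in the 3 comparisons, yet its level followed the common shift from sample to sample. Rps3, a small subunit protein that also acts in DNA repair, had log2 fold changes of -0.12, 0.14 and 0.02. Rpsa, the small subunit protein known also as the laminin receptor, had 0.09, 0.09 and 0.18. Rps27a, made as a fusion to ubiquitin, had 0.12, -0.21 and -0.09.

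Rpl27a, Rpl30 and Rpl35a, all core large subunit proteins, did not follow the common shift. Rpl27a was at 495, 49.3 and 55.0 CPM in the controls, 49.8 and 634 CPM in the model, and 710.0, 47.3 and 620.1 CPM with electroacupuncture. Each group held at least 1 sample at 47.3 to 55.0 CPM and at least 1 at 495 to 710.0 CPM, with nothing between, so the split crossed the groups. The deposited counts in the high samples carried decimals and those in the low samples were whole numbers. The log2 fold changes, of 0.78 (SE 1.47), 0.42 (SE 1.51) and 1.20 (SE 1.35) in the 3 comparisons, were smaller than their errors.

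Rpl30 was at 120.1, 279 and 166 CPM in the controls and at 313 CPM in model A, but at 1.75 CPM in model B and at 0, 2.04 and 4.11 CPM in electroacupuncture A, B and C. The log2 fold change with electroacupuncture was -6.55 against control (SE 1.85, adjusted p = 0.843, unadjusted p = 0.00892) and -6.29 against the model (SE 1.87, adjusted p = 0.23). DESeq2 called the second, with an adjusted p of 0.0485, among 2.8% of all genes called lower, and without model A the estimate turned to 0.19. The near-identical columns summed as electroacupuncture B held counts of 48.12 and 0 for this gene, so the value also changed between repeat columns. Rpl30l1, its paralog, was at 0.825, 0 and 0.916 CPM in the controls, 0.0536 and 2.90 CPM in the model, and 2.00, 2.55 and 1.37 CPM with electroacupuncture. The 4 samples with low Rpl30 were the 4 with the most Rpl30l1, which stayed under 3 CPM. Rpl30 is a protein that all ribosomes carry, and how reads shared between copies were assigned is not stated by the labels or the file, which leaves the values of both genes uncertain.

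Rpl35a, whose start is printed above, was listed at 0 in 9 of the 11 columns. The other columns, 1 in model A and 1 in model B, held counts of 8.37 and 163.12, while the near-identical partner of each held 0. It failed the expression filter, and no fold is given. Rps9 and Rps9l1 had the same value in every column, so that they are a single measurement under 2 symbols. RefSeq lists Rps9l1 as a synonym of Rps9 as well as a symbol of its own. That measurement was 151, 143 and 187 CPM in the controls, 145 and 112 CPM in the model, and 152, 140.4 and 155 CPM with electroacupuncture. In the model against control it had a log2 fold change of -0.32 (SE 0.18, adjusted p = 0.472).

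**Figure D4:**
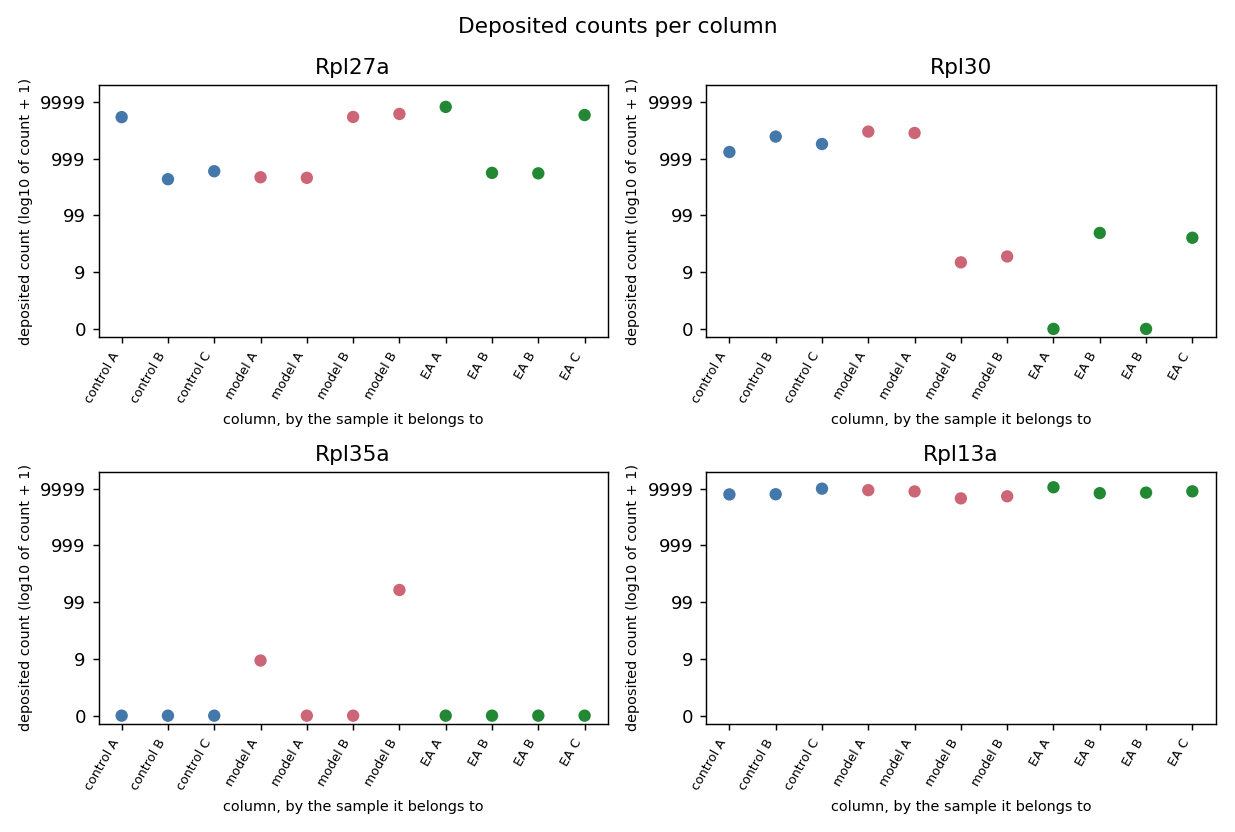
Deposited counts per column on a log10 axis of the count plus 1, with columns of the same sample sharing a name, for Rpl27a, Rpl30, Rpl35a and, for comparison, Rpl13a. Rpl27a falls on 2 levels that cross the groups. Rpl30 is between 0 and 48.12 counts in model B and all electroacupuncture columns, and between 1310.38 and 3005.13 in the others. Rpl35a is at 0 in 9 of 11 columns, and Rpl13a lies between 6750 and 10597 counts in every column.

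Fractional counts, which can arise when an estimate divides reads among features, were common among these genes. Of the 88 members, 59 (67.0%) had a fractional value in at least 1 column, against 38.5% of all rows, and 33 had one in every column. Those 33 include Rpl10a, Rpl12, Rpl17, Rpl21 and Rps2. The 29 members with whole counts in every column took 0.822% to 1.25% of all counts. Their median log2 fold change was 0.08 in the model against control, -0.00 with electroacupuncture against the model and 0.07 against control, close to the values of all members. Mammalian ribosomal protein genes have many processed pseudogenes, so any value here may include reads from, or have lost reads to, near-identical copies.

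The members outside the core set differed widely in level and spread. Rpl39l, a paralog of Rpl39 that is most active in the testis of mouse and human, was at 0.917, 0.910 and 1.01 CPM in the controls, 0.161 and 0.0547 CPM in the model, and 0.347, 1.19 and 1.90 CPM with electroacupuncture. The groups summed to 29, 4 and 50 counts. The model samples were the lowest, and with so few counts the fitted log2 fold changes of -3.03 (SE 0.87, adjusted p = 0.207) and 3.29 (SE 0.87, adjusted p = 0.186), for the model against control and electroacupuncture against the model, depend on the prior count. Both were called with every column taken as its own library (adjusted p 0.0338 and 0.0155), where 3.75% of all genes were called lower and 5.48% higher in the respective comparison. Both were also called without electroacupuncture A (adjusted p 0.0482 and 0.0449), where those shares were 1.96% and 1.19%. Rpl39 itself was at 92.0, 139.8 and 120 CPM in the controls, 169 and 107 CPM in the model, and 137, 99.4 and 120 CPM with electroacupuncture.

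Rpl22l1, the paralog of Rpl22, was at 48.0, 54.8 and 53.0 CPM in the controls, 52.0 and 40.0 CPM in the model, and 38.6, 37.2 and 52.9 CPM with electroacupuncture. Its groups overlapped, as did those of Rpl22, at 124 to 184 CPM over the 8 samples. Rps19bp1, which encodes a small nucleolar protein that binds Rps19, was at 4.68, 3.87 and 4.40 CPM in the controls, 2.89 and 3.56 CPM in the model, and 5.99, 5.10 and 3.69 CPM with electroacupuncture. The model samples were the lowest of the 8, by a small margin over electroacupuncture C. Rpl10l, a paralog of Rpl10 used in the testis of mouse and human, lay between 2.50 and 3.796 CPM, Rps27l between 6.02 and 13.7 CPM, and Rps4y2 between 1.65 and 5.55 CPM, with overlapping groups in every comparison.

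Genes that work with the ribosome were counted beside the members. Of 33 initiation factors tested, 0 were called, with 6 higher and 27 lower in estimate in the model against control (median log2 fold change -0.16). With electroacupuncture against the model the initiation factors had 23 higher and 10 lower (median 0.12). The 12 elongation and termination factors had medians of -0.08 and 0.12 in those comparisons, and 17 other 5′ TOP genes had 0.02 and 0.13. The 34 ribosome biogenesis genes had medians of -0.07 and -0.03, the 12 RNA polymerase I genes -0.07 and -0.03, and the 20 genes of the mTOR and S6 kinase pathway 0.07 and -0.04. Ribosomal proteins of the mitochondrion, which are encoded by separate genes, had 19 of 75 higher and 56 lower in the model against control (median -0.11), and 15 higher and 60 lower with electroacupuncture against control (median -0.13). In both of these comparisons the cytosolic median was positive. Of all genes tested, 51.5% were higher in the model against control (median 0.02) and 53.3% with electroacupuncture against the model (median 0.03). With electroacupuncture against control the share over all genes was 50.7% (median 0.01). None of the genes in these lists was called in any of the 3 comparisons, and the difference between the lists was not tested.

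Core members were also split by the stricter pattern, a C at the annotated start followed by at least 4 more pyrimidines. Those without it include members whose pyrimidine run starts with a T, such as Rpl27a, Rps23 and Rps24. The median log2 fold change in the model against control was 0.20 in the 23 tested members with the pattern. It was 0.11 in the 38 without it. The medians were -0.07 and -0.07 with electroacupuncture against the model, and 0.08 and 0.03 against control. The median log2 difference from the control mean was 0.42 with the pattern and 0.31 without it for model A. For model B it was -0.03 and -0.13.

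Markers of cell types were compared with the member shares by sample, and some lists were high or low in the samples with high shares while others were not. Model A and electroacupuncture A, the samples with the highest member shares, had summed levels of 8 microglial and macrophage markers of 560 and 691 CPM, against 188 to 303 CPM in the other 6 samples. Their summed levels of 6 astrocyte markers were 5742 and 6127 CPM, against 3441 to 4690 CPM, and of 5 neuronal markers 4282 and 2691 CPM, against 5226 to 8219 CPM. Endothelial markers were lowest in model A (91.1 CPM) and highest in electroacupuncture A (267 CPM). The summed oligodendrocyte markers of these samples, 46920 and 31730 CPM, lay within the range of the other 6, 24450 to 74130 CPM, as did red cell markers (1042 and 4302 CPM, within 107 to 5756 CPM) and choroid plexus markers (19.8 and 52.4 CPM, within 9.74 to 1363 CPM). The summed levels of 5 leukocyte markers were 16.8 and 22.0 CPM in model A and electroacupuncture A, within 7.66 to 39.1 CPM in the others. Electroacupuncture B and C had microglial markers at 282 and 276 CPM and member medians of -0.21 and 0.19. Control A and electroacupuncture B, the samples with the lowest shares, had astrocyte sums of 4238 and 4126 CPM, within the range of the other controls. None of the markers in these lists that are in the table was at 0 in all samples. The part of cell composition in the levels of the members was not tested.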

How the data were processed

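Poly(A)-selected, strand-marked libraries of 12 rat brain samples were described in the labels. The authors deposited 1 table of 18804 rows and 11 columns of expected counts (estimated counts with up to 2 decimals and no normalization, 70.5% to 72.1% whole per column). The submitters' processing notes name DESeq2 1.16.1, featureCounts 1.5.0-p3, HISAT2 2.0.5 and StringTie 1.3.3b, without roles. Neither these notes nor the labels name the genome build, or say whether the molecular identifiers in the adapters were used. Column names give the group only, 4 model, 4 electroacupuncture and 3 headed as sham, taken as control. All 3 groups have 4 labelled samples.

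Counts of symbols on 2 rows (4 symbols, Rps19 among them) were summed, near-identical columns (median squared difference under 2 times the sampling variance, over genes with at least 20 counts in the pair) were summed to 8 samples, and values were rounded. The design had assumed separate samples per column. The labels do not say whether each sample is its own animal, so the spread behind the p-values may be technical.

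A two-sided quasi-likelihood test (edgeR 4.0.16, R 4.3.3) was run in 1 fit of 15485 genes, with TMM scaling, edgeR's default filter on low counts and robust estimation. The residual degrees of freedom were 5, and the common biological coefficient of variation was 36.8%. Benjamini-Hochberg adjustment ran over all genes tested. CPM used TMM scaling, and log2 CPM a prior count of 2. The fit was tried on simulated data with less spread than the 36.8% found here and with larger changes than most members showed. That trial does not show how the fit performs at the spread and effect sizes of these data. DESeq2 1.42.0 was an alternative, with other scalings, filters and columns, and each sample left out. Named members are the 5 highest and 5 lowest log2 fold changes per comparison at a mean of at least 10 CPM, members by role, paralog pairs and members near the count limit. Where genes outside that rule are named, they were chosen after their values were seen. The members and lists were chosen with earlier results of these data known. All 88 members matched RefSeq names of GRCr8, 3 of them as synonyms. CPM is not corrected for transcript length, so levels of different genes are not ranked.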

Additional observations from a re-analysis of the deposited data

How the results depend on the processing

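No paired analysis was possible because the column numbers could not be tied to the numbered samples, and near-identical columns carry different numbers. The number of genes called in the model against control was 1 in the main test, 0 with total counts, 770 with DESeq2, 1129 with every column as its own library, and 0 to 565 with 1 sample left out. For electroacupuncture against the model it was 0, 692 with DESeq2, 1666 with every column, and 0 to 308 with 1 sample left out. For electroacupuncture against control it was 0, and 1 with DESeq2. Members called in the model against control were 0, 2 with every column and 0 to 1 with 1 sample left out. Against the model they were 0, 1 with DESeq2, 2 with every column and 0 to 1 with 1 sample left out. With only 2 model samples, leaving out either leaves a lone sample that is assumed to vary like the other groups.

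The median log2 fold change of members, with 1 sample left out, ran from -0.12 to 0.31 in the model against control, from -0.21 to 0.16 with electroacupuncture against the model, and from -0.04 to 0.18 against control. With every column as its own library the last was -0.00. Total counts moved the median of all genes in the model against control by 0.11, and members then lay 0.10 above it, as with TMM scaling. Over tested core members, the mean of large minus small subunit levels with electroacupuncture was -0.123. It was -0.0337 over those with whole counts and 0.0136 without Rpl30 and Rpl27a. The cause of these changes was not tested beyond what each setting leaves out.

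Only the named members with the highest and lowest log2 fold changes of each comparison were followed singly through these settings. Among them, those that turned direction did so with 1 sample left out. Members that were not followed singly also turned, since the member median in the model against control went from 0.11 to -0.12 without model A. Rpl30 ran from -6.74 to 0.73 in the model against control (0.14 without control B and 0.73 without model B) and from -7.28 to 0.19 with electroacupuncture against the model (0.19 without model A). Rpl27a ran from -2.01 to 2.71 (-2.01 without model B) and from -0.47 to 3.21 (-0.47 without model A, -0.05 without electroacupuncture A). Rps26 ran from -0.12 to 0.80 (-0.12 without model A), and Rps10 with electroacupuncture against control from -0.25 to 0.03 (0.0315 without control B, 0.002 without electroacupuncture B).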
